A study of Homo sapiens with 4 samples.

Results

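RNA polymerases I, II and III, the multi-subunit enzymes that transcribe the nuclear genome, were examined in Jurkat cells through the transcripts of their subunits. Members were the rows of the deposited table whose gene symbol is POLR1, POLR2 or POLR3 followed by a subunit letter, together with 3 older names, CD3EAP (now POLR1G), TWISTNB (now POLR1F) and ZNRD1 (now POLR1H). The rule found 33 genes in 35 of 16328 rows, because POLR1D and POLR2F had 2 rows each. By enzyme there were 9 rows for RNA polymerase I, of which POLR1C and POLR1D also serve RNA polymerase III, 10 rows for RNA polymerase II, 10 rows for RNA polymerase III and 6 rows for subunits found in every enzyme. The 6 large subunits were the catalytic pair of each enzyme, and the other 29 rows were grouped as small.

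Jurkat is an established human T cell leukemia line. The 4 libraries comprised 1 labelled Control, which carried a control hairpin, and 3 labelled SLEAR shRNA (numbered 1 to 3), in which a lentiviral vector delivered hairpins against SLEAR. No label tells whether the 3 numbers are different hairpins or repeats, or whether cultures were separate, so p-values reflect only how these libraries scatter, and that scatter may be technical. No row carried the name SLEAR, so the knockdown was not checked. Libraries were read at transcript 3' ends by Multiplex Analysis of PolyA-linked Sequences, and each level is in RPM, reads scaled by the total of their library. In such bulk RNA, fewer cells of a type and less RNA per cell cannot be told apart.

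Depth, estimated from the smallest step between values, was about 8385013 reads for the Control library, then 7048871, 7524415 and 4814052 across SLEAR shRNA-1 to -3. By counting error alone, a row listed at 0 can stand for an expected level of up to about 3 reads. That is 0.358, 0.426, 0.399 and 0.623 RPM in the same order. SLEAR shRNA-3 stood apart: 6941 of 16328 rows were at 0 there, against 2314 to 2984 in the other libraries. Of the 953 rows at 8 to 16 RPM in both SLEAR shRNA-1 and -2, 7.87% had no reads with SLEAR shRNA-3 and none lacked reads in Control, so a 0 in SLEAR shRNA-3 does not show absence. Of 10 T lineage markers, 9 reached 1 RPM in Control, and their sum was 3864 to 4321 RPM per library. The summed markers of myeloid, erythroid, epithelial and fibroblast cells stayed at 3.19 RPM or less. The B cell sum was 12 RPM in Control and 22, 19.7 and 23.1 RPM with SLEAR shRNA, nearly all of it CD79A, and its part in the results was not tested.

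RNA polymerase I makes the large ribosomal RNA precursor, RNA polymerase II makes messenger RNA, and RNA polymerase III makes transfer RNA, 5S ribosomal RNA and other short RNAs. In each enzyme a pair of large subunits forms the active centre, smaller subunits hold that pair together, and a stalk and further subunits serve initiation, RNA cleavage and termination. In dividing leukemia cells all of these enzymes are in constant use, and the stoichiometry of the complexes is set after translation as well as by transcript supply.

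Promoter sequence was examined because it is a feature that the choice of members did not use. RefSeq promoter windows on GRCh38.p14, from 250 bases before to 50 after each gene start, were at hand for 23 of the 33 genes in 29 windows. The letters CCGGAAG, the core bound by ETS family factors, were found on either strand in 10 of the 29 windows (34.5%), from 8 of the 23 genes. They were in 10.3% of all 35116 windows. The palindrome CGCATGCG, part of the site of NRF1, a regulator of nuclear genes for mitochondria and growth, was in 4 windows (13.8%) and in 2.02% of all windows. These 4 windows came from 3 of the 23 genes, because the same POLR2F site was counted in overlapping windows. Shares by gene were not computed for the whole set. The whole set was not limited by expression or GC content, and no matched set was compared. The shares may thus not be particular to polymerase subunits. The GC box GGGCGG was in 20 windows (69%, against 45% of all), CCAAT in 6 (20.7% against 34.6%), and TATAAA in 1 (3.4% against 11.5%), that of POLR2M. These are descriptions of letters, on both strands, and matches of different motifs may overlap. Windows of 30 bases upstream of the start are shown for a shared subunit with both motifs (POLR2F), a shared subunit with the NRF1 letters (POLR2H), the catalytic subunits with either motif on each of RNA polymerases I and III (POLR1B, POLR3A, POLR3B), and an RNA polymerase II platform subunit (POLR2C). Capitals mark the motif, and each sequence is 5′ to 3′ on the gene's strand.
POLR2F, chr22:37953614-37953643, plus strand: acaccagtcagCGCATGCGcactttccccg
POLR2F, chr22:37953647-37953676, plus strand: tgtcctgcctcCCGGAAGtgatttcctctg
POLR2H, chr3:184363331-184363360, plus strand: cgcgttaccgcttgtttgtgCGCATGCGcc
POLR3B, chr12:106358043-106358072, plus strand: ggcggtttgtgCGCATGCGccgggcttctg
POLR3A, chr10:78029588-78029617, minus strand: aaaaaggcatgCCGGAAGtctctcttgaca
POLR1B, chr2:112542412-112542441, plus strand: tgcggccactaCTTCCGGcgtgtaccgaga
POLR2C, chr16:57462643-57462672, plus strand: tcgctgactgaCTTCCGGtgttggcggtgg

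Set against Control, the SLEAR shRNA libraries address whether subunit transcripts differ when SLEAR is targeted. Across the 35 rows the levels in SLEAR shRNA scattered to both sides of Control: 9 rows were above Control in all 3 SLEAR shRNA libraries and 8 were below. Among all 12350 tested rows these shares were 17.8% above and 28.6% below, and the subunits' counts are not far from them. In SLEAR shRNA-1 and -2 alone 18 rows were above and 11 below in both, against 35.2% and 41% of all rows. Of the 6 shared subunit rows, 6 were above Control in SLEAR shRNA-1 and -2, but the pair of POLR2F rows entered only through SLEAR shRNA, and 3 of the 6 were at 0 in SLEAR shRNA-3, where the group median was -0.06. Of the 6 catalytic subunit rows, 4 were below in both. All of these counts share 1 Control library.

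No subunit row passed the test over all libraries. By limma-trend on log2(RPM + 1) with Benjamini-Hochberg adjustment, 0 of 35 rows were called at an adjusted p under 0.05, beside a background of 0% of 12350 rows, with 0.993 as the smallest adjusted p. POLR2K was the 1 subunit row at an unadjusted p under 0.05, against 92 higher and 239 lower rows in all. Limma-voom on estimated reads also called 0 rows and 0 subunits, with 69 higher and 222 lower rows and 1 subunit row at an unadjusted p under 0.05. A second fit left out SLEAR shRNA-3 and kept the 4851 rows with a mean log2 level of at least 4. That mean was over all 4 libraries, so SLEAR shRNA-3 still took part in the choice of rows. This second fit was chosen with results of these data known. There, 1 of 14 subunit rows rose (POLR2K) and 1 fell (POLR2B), against 7.11% higher and 7.26% lower of all rows. A share of 1 in 14 is close to that background. The spread of that fit came from a single pair of SLEAR shRNA libraries and was pooled completely over rows, and without the minimum level the fit called 0 rows (smallest adjusted p 0.362).

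**Figure D1:**
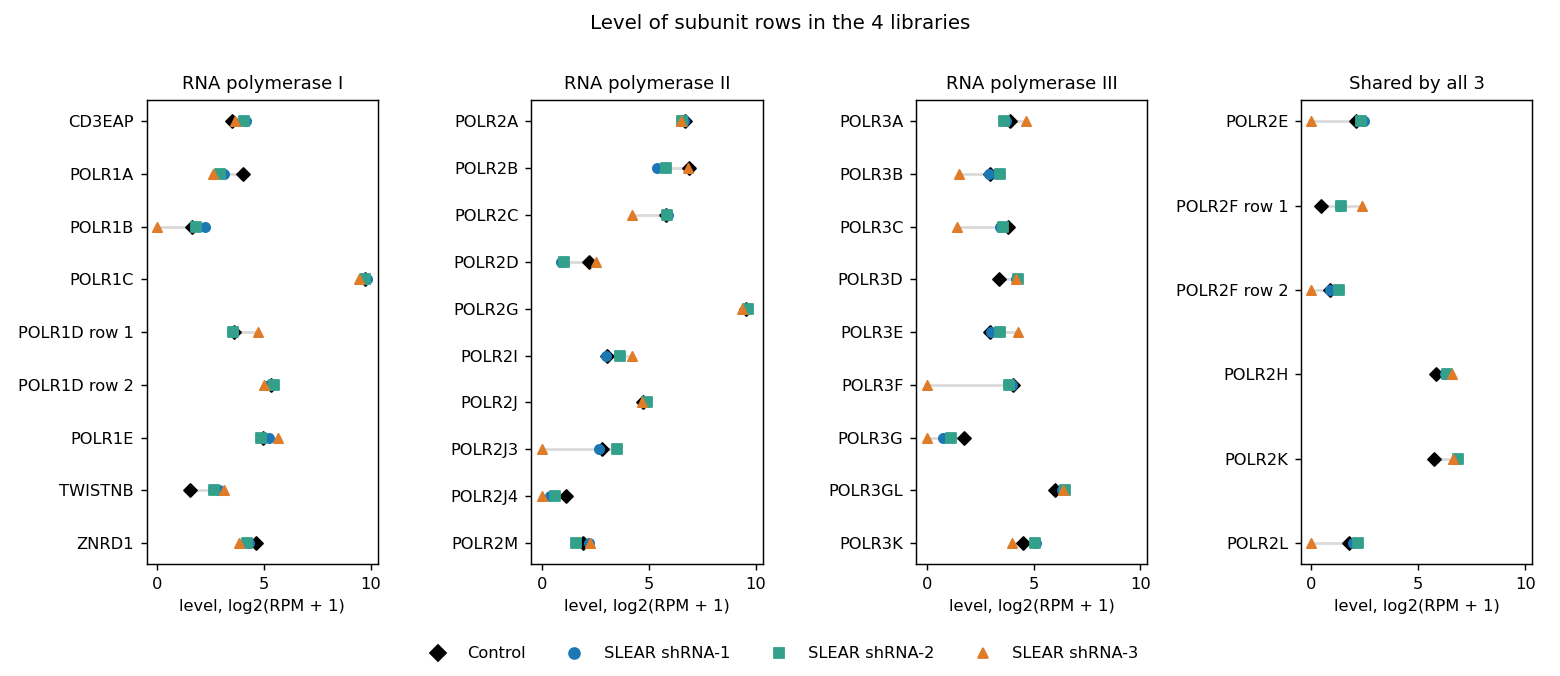
Level of 34 of the 35 subunit rows on the log2(RPM + 1) scale (x axis), by enzyme. Each point is 1 library (diamond Control, circle, square and triangle SLEAR shRNA-1, -2 and -3), and grey lines join the lowest and highest; the triangles at 0 are the 8 rows at 0 in SLEAR shRNA-3.

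Of the catalytic pair of RNA polymerase II, POLR2A lay near Control in every SLEAR shRNA library, whereas POLR2B was low in SLEAR shRNA-1 and -2. The pair was not compared with each other by a test. POLR2A, the largest subunit, whose tail of repeats coordinates RNA processing, had 102 RPM in Control, then 99.2, 93.6 and 88.7 RPM across SLEAR shRNA-1 to -3. The 3 SLEAR shRNA libraries lay just below Control, and the fitted log2 difference was -0.12 ± 0.20 (SE). POLR2B, its partner across the active centre, had 116 RPM in Control against 41.3, 54.9 and 112 RPM. SLEAR shRNA-1 and -2 were far below Control and SLEAR shRNA-3 was next to it. Over all libraries the log2 difference was -0.86 ± 0.60 (SE, adjusted p = 0.993 by limma-trend). Without SLEAR shRNA-3, among the better expressed rows, POLR2B was 2.40-fold lower on the log2(RPM + 1) scale, with a log2 difference of -1.26 ± 0.19 (SE, adjusted p = 3.2e-08 by limma-trend). The ratio of POLR2B to POLR2A reads was 1.13 in Control, 0.416 with SLEAR shRNA-1, 0.587 with -2 and 1.26 with -3. The estimated reads behind POLR2B numbered about 970 in Control, then 291, 413 and 537 across SLEAR shRNA-1 to -3. The part of counting error in these gaps was not tested. In GENCODE 29 the 3' end of POLR2B overlaps exons of IGFBP7 on the opposite strand, which was at 0 to 0.208 RPM.

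The other catalytic subunits had lower levels. POLR1A, the largest subunit of RNA polymerase I, had 15.4 RPM in Control against 7.80, 6.65 and 5.19 RPM, log2 differences of -0.90, -1.10 and -1.40, so all 3 lay below it. It was not called, and with a mean log2 level under 4 it was outside the second fit. POLR1B, its catalytic partner, was at 2.15 RPM against 3.69, 2.53 and 0 RPM. POLR3A, the largest subunit of RNA polymerase III, was at 14 RPM against 12.1, 11.4 and 24.1 RPM, and POLR3B, its partner, at 6.80 RPM against 6.53, 9.83 and 1.87 RPM. For these 3 genes SLEAR shRNA-3 lay outside the range of the other libraries, above it for POLR3A and below it for POLR1B and POLR3B.

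As a group the 6 large subunits had a median log2 difference of -0.32, with medians of -0.12, -0.20 and -0.80 in SLEAR shRNA-1, -2 and -3, and 3 rows were below Control in all 3 libraries (POLR1A, POLR2A and POLR2B) and 0 above. That median was -0.52, -0.64 and -0.16 when SLEAR shRNA-1, -2 or -3 was left out. The 29 small subunit rows had a median of 0.06, with 0.11, 0.24 and -0.07 by library, and 9 rows above in all 3 libraries and 5 below. Over all tested rows the median was -0.11, with 17.8% of rows above Control in all 3 libraries and 28.6% below. The large minus the small median was -0.23, -0.44 and -0.73 in the 3 libraries and -0.38 ± 0.25 (SD, n = 3) over all. In SLEAR shRNA-3, the library with the most rows at 0, the large rows furthest below Control had low levels. These were POLR1B at 0 RPM, POLR3B at 1.87 RPM and POLR1A at 5.19 RPM, while POLR3A, at 24.1 RPM, was above Control. The gap between large and small subunits was not tested, since members are not replicates. Quantile normalization, which moved the median of all rows from -0.11 to 0.01, gave large and small medians of -0.11 and 0.19. Transcripts of the large subunits, found for 5 of 6 in GENCODE 29, had a median length of 4457 bases and 45.1% GC, against 1851 bases and 50.8% GC for the small subunits. Across 11915 tested rows with a known transcript, which share the same 4 libraries, Spearman's rho with the fitted difference was -0.15 for length and 0.26 for GC content, and -0.26 and 0.42 among 4750 rows with a mean log2 level of at least 4. The part of length and GC content in the gap between large and small subunits was not tested.

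**Figure D2:**
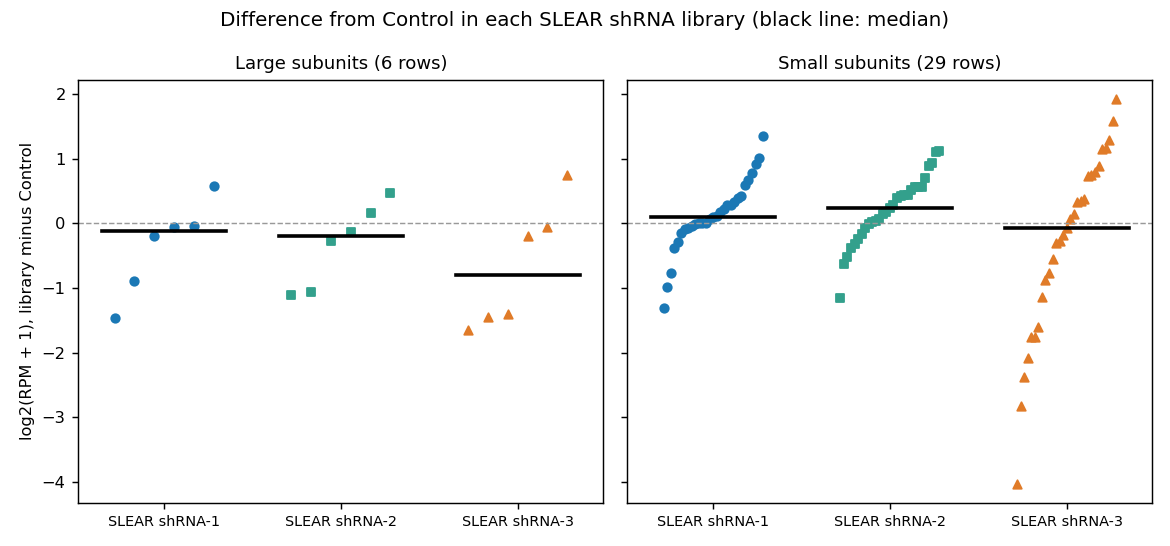
Difference of each SLEAR shRNA library from Control in log2(RPM + 1) (y axis) for the 6 large (left) and 29 small subunit rows (right); points are rows, black lines medians. The medians of the large subunits lie at -0.12, -0.20 and -0.80 and those of the small at 0.11, 0.24 and -0.07; the lowest points of SLEAR shRNA-3 include rows at 0.

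Of the subunits that all 3 polymerases share, POLR2K and POLR2H were well expressed and were higher in every SLEAR shRNA library. POLR2K, a small zinc-binding subunit that helps to hold the catalytic pair together, had 52.5 RPM in Control, then 106, 114 and 97.6 RPM across SLEAR shRNA-1 to -3. The SLEAR shRNA values, 106 ± 8.34 RPM (SD, n = 3), were about equal to each other. All 3 lay above the 1 Control library, as in 17.8% of all tested rows. Its log2 difference over all libraries was 1.0 ± 0.21 (SE, unadjusted p = 0.00739 and adjusted p = 0.993 by limma-trend), and between 0.94 and 1.06 when each SLEAR shRNA library in turn was left out. Without SLEAR shRNA-3, among the better expressed rows, it rose 2.08-fold on the log2(RPM + 1) scale (adjusted p = 1.31e-06 by limma-trend). POLR2H, which binds near the rim of the enzyme, had 55 RPM in Control against 74.2, 78.8 and 93.3 RPM. Its log2 difference was 0.56 ± 0.24 (SE), and it did not pass in the second fit (adjusted p = 0.0802 by limma-trend).

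The remaining shared subunits were near the floor. POLR2E, which sits at the jaw of the enzyme, had 3.22 RPM in Control against 4.54, 3.99 and 0 RPM. POLR2L, a small zinc-binding subunit, was at 2.39 RPM against 2.84, 3.46 and 0 RPM. Within 500 bases of its 3' end it shares opposite-strand exon bases with CD151, at 16.2 RPM in Control against 23.4, 22.6 and 49.2 RPM. POLR2F had 1 row with 0.358 RPM in Control against 1.56, 1.59 and 4.15 RPM, and a second with 0.835 RPM against 0.851, 1.46 and 0 RPM. The sum of its rows was 1.19 RPM against 2.41, 3.06 and 4.15 RPM, and the first row held 30%, 64.7%, 52.2% and 100% of it. Both POLR2F rows passed the minimum of 1 RPM through SLEAR shRNA alone, and its Control value was 3 and 7 reads, so little can be read from its differences.

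**Figure D3:**
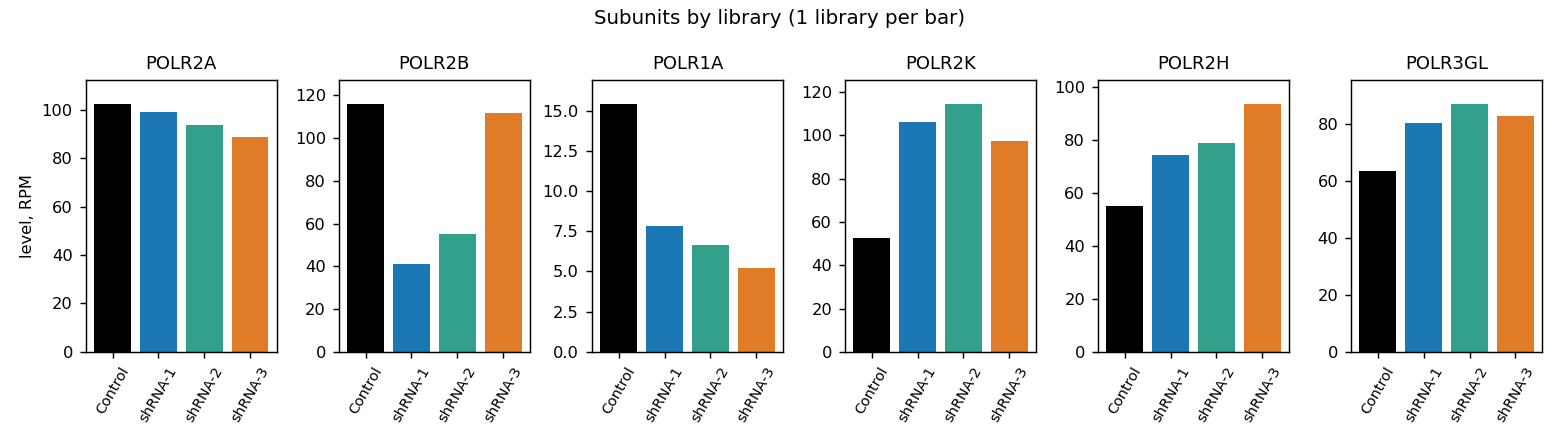
Level in RPM (y axis, from 0, with its own scale in each panel) of 6 subunits, 1 bar per library. POLR2B is low in SLEAR shRNA-1 and -2 and at 112 RPM in SLEAR shRNA-3, POLR1A is lower and POLR2K, POLR2H and POLR3GL are higher in each SLEAR shRNA library, and POLR2A ranges from 88.7 to 102 RPM.

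Among the better expressed small subunits particular to RNA polymerase II, POLR2G and POLR2J lay near Control, whereas POLR2C was low in SLEAR shRNA-3. POLR2G, a stalk subunit that contacts the emerging RNA, had 747 RPM in Control against 754, 787 and 657 RPM, on both sides of Control, with a log2 difference of -0.03 ± 0.20 (SE). POLR2J, of the platform on which the enzyme is assembled, was at 25.8 RPM against 27, 29.4 and 24.5 RPM (log2 difference 0.06 ± 0.32, SE, and -0.003 without SLEAR shRNA-2). POLR2C, the partner of POLR2J in that platform, was at 55.5 RPM against 59.7 and 56.7 RPM for SLEAR shRNA-1 and -2, but only 17.7 RPM for SLEAR shRNA-3. Its log2 difference of -0.49 ± 0.79 (SE) thus rested on SLEAR shRNA-3 and was 0.07 without it. POLR2I, which serves RNA cleavage and fidelity, was at 7.39 RPM against 6.95, 11.4 and 17.7 RPM. It shares exon sequence on the opposite strand with TBCB (155 to 184 RPM), but not within 500 bases of the POLR2I 3' end. Within 500 bases of its 3' end, POLR2J shares opposite-strand exon bases with LRWD1, at 29 RPM in Control against 27.2, 31.5 and 27 RPM. The part of these genes in the subunit values was not tested. POLR2D, the partner of POLR2G in the stalk, was at 3.58 RPM against 0.851, 1.06 and 4.78 RPM, low in SLEAR shRNA-1 and -2 only.

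Rows of POLR2J copies and of POLR2M are uncertain. POLR2J3, a near copy of POLR2J that can share its reads, had 6.08 RPM in Control against 5.39, 10.5 and 0 RPM, and POLR2J4, a non-coding copy, at 1.19 RPM against 0.284, 0.532 and 0 RPM, which passed the minimum through Control alone. POLR2M, which holds the enzyme in an inactive form at some genes, was at 2.74 RPM against 3.55, 1.99 and 3.74 RPM in a row shared with the readthrough gene GCOM1. The median log2 difference of the 10 rows of RNA polymerase II was -0.31, but 0.01 without SLEAR shRNA-3, with library medians of -0.06, -0.05 and -0.13.

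Among RNA polymerase I subunits, POLR1C and POLR1D form the assembly platform that RNA polymerase III uses too. POLR1C had 845 RPM in Control against 912, 858 and 698 RPM, giving a log2 difference of -0.05 ± 0.23 (SE) that was 0.06 without SLEAR shRNA-3. POLR1D had 1 row at 11 RPM against 10.6, 10.9 and 25.8 RPM and a second at 38.9 RPM against 36.7, 43.2 and 31.2 RPM. Whether these rows stand for transcripts with different ends was not checked. The first row made up 22% of their sum in Control, 22.5% and 20.1% with SLEAR shRNA-1 and -2, but 45.3% with SLEAR shRNA-3. The sum stayed between 47.4 and 56.9 RPM. The change in share was in 1 library only.

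The initiation and stalk subunits of RNA polymerase I differed among themselves. POLR1E, of the dimer that resembles the factor TFIIF, had 29.6 RPM in Control against 36.2, 28.2 and 50.1 RPM (log2 difference 0.32 ± 0.41, SE), a difference of 0.51 without SLEAR shRNA-2 and 0.11 without SLEAR shRNA-3. CD3EAP, its partner in the dimer, was at 10.4 RPM against 17.2, 15.8 and 11.6 RPM, above Control in all 3 libraries. It shares 1593 exon bases on the opposite strand with ERCC1, a DNA repair gene whose summed rows were at 21.6 RPM in Control against 18.6, 16.5 and 7.69 RPM. None of those bases lie within 500 bases of the CD3EAP 3' end. TWISTNB, of the stalk, had 1.91 RPM in Control against 6.38, 5.32 and 7.69 RPM, about 16 reads against 45, 40 and 37. All 3 lay above the 1 Control library, as in 17.8% of all tested rows. TWISTNB was not called (unadjusted p = 0.118 and adjusted p = 0.993 by limma-trend). ZNRD1, which serves RNA cleavage, was at 23.4 RPM against 18.9, 17.7 and 13.3 RPM, below Control in all 3 libraries, with a log2 difference of -0.48 ± 0.42 (SE). The median over the 9 rows was -0.05, and 0.33 under quantile normalization.

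RNA polymerase III subunits had 4 of 10 rows above Control in all 3 libraries and 3 below, beside 17.8% and 28.6% of all tested rows. Near ties are counted, such as POLR3E (6.92 RPM in Control, 6.95 RPM in SLEAR shRNA-1) and POLR3F (15.3 and 15.2 RPM). The median log2 difference of the 10 rows was 0.14 ± 0.30 (SD of the 3 library medians). POLR3GL, of the initiation subcomplex, had 63.6 RPM in Control against 80.4, 86.8 and 82.9 RPM, all 3 above Control and close together, with a log2 difference of 0.39 ± 0.21 (SE, unadjusted p = 0.128 by limma-trend) and an adjusted p of 0.149 by limma-trend in the second fit. POLR3G, its paralog, which is typical of stem and tumour cells, was at 2.39 RPM against 0.709, 1.20 and 0 RPM, or about 20 reads against 5, 9 and 0. The ratio of POLR3G to POLR3GL reads was 0.0375 in Control and 0.00882, 0.0138 and 0 in the SLEAR shRNA libraries, the lower level and the higher level each moving that way. Neither paralog passed the test.

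The other subunits of that subcomplex were lowest in SLEAR shRNA-3. POLR3C had 12.9 RPM in Control against 9.65, 10.8 and 1.66 RPM. POLR3F was at 15.3 RPM against 15.2 and 13.6 RPM in SLEAR shRNA-1 and -2, about 128, 107 and 102 reads, while SLEAR shRNA-3 held none. In the TFIIF-like dimer, POLR3D was at 9.42 RPM against 16.9, 18.2 and 17 RPM, and POLR3E at 6.92 RPM against 6.95, 9.70 and 18.3 RPM. The POLR3D values with SLEAR shRNA, 17.4 ± 0.726 RPM (SD, n = 3), were close together and above Control. POLR3K, which serves RNA cleavage and termination, was at 21.9 RPM against 33.8 and 33 RPM in SLEAR shRNA-1 and -2 but 14.7 RPM in SLEAR shRNA-3 (second fit, adjusted p = 0.0936 by limma-trend). SNRNP25 shares 153 exon bases with POLR3K on the opposite strand, none within 500 bases of the POLR3K 3' end. SNRNP25 was high and low in the same libraries, with 4.41 RPM in Control against 9.51, 10.1 and 2.49 RPM. Its part in the POLR3K values was not tested. No source used here tells whether reads were assigned by strand.

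In SLEAR shRNA-3, 8 of the 35 rows were at 0 (POLR1B, POLR2E, the second POLR2F row, POLR2J3, POLR2J4, POLR2L, POLR3F and POLR3G), and 0 rows in any other library. The first POLR2F row had 4.15 RPM in SLEAR shRNA-3. Of the 21 subunit rows at 1 to 20 RPM on average in the other 3 libraries, 7 were at 0 there, against 33.5% of 6516 such rows in the whole table, so the subunits shared this feature with the rest of the library.

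The factors that work with the polymerases, taken as 5 lists, gave 0 calls over all libraries; the shares of rows above and below Control can be set beside 17.8% and 28.6% of all rows, and calls in the second fit beside 7.11% higher and 7.26% lower. Of 7 rows for RNA polymerase I factors, 1 was above and 2 were below Control in all 3 libraries, with a median of -0.32. RRN3, which makes the enzyme competent to initiate, had 21.9 RPM in Control against 16.7, 14.6 and 6.44 RPM, and TAF1D, of the promoter selectivity factor, at 28 RPM against 29.7, 31.8 and 32 RPM. Of 12 rows for RNA polymerase II general factors, 3 were above and 5 below (median -0.02). ERCC3, the helicase of TFIIH that opens promoter DNA, was at 133 RPM against 103, 85.3 and 86.8 RPM and fell in the second fit (log2 difference -0.50, adjusted p = 0.0327 by limma-trend), and GTF2F1, a subunit of TFIIF, was at 21.3 RPM against 22, 27.4 and 56.7 RPM. TBP, which serves all 3 enzymes, was at 31.7 RPM against 21.3, 30 and 15.8 RPM.

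Of 19 rows for RNA polymerase II elongation factors, 1 was above and 5 were below in all 3 libraries (median -0.16), and 3 of 13 fell in the second fit with 0 higher, beside 7.26% lower and 7.11% higher of all rows. These were CCNT1, the cyclin of the kinase that releases paused polymerase, with 628 RPM in Control against 483, 457 and 490.2 RPM, SUPT16H, of the histone chaperone FACT, at 222 RPM against 125, 119 and 257 RPM, and CDC73, of the PAF1 complex, at 36.3 RPM against 18.4, 17.9 and 38.4 RPM. SUPT16H and CDC73, with log2 differences of -0.86 and -0.96 in that fit, were at or above Control in SLEAR shRNA-3, whereas CCNT1 was low in every SLEAR shRNA library. NELFA, of the complex that holds polymerase in pause, was at 40.7 RPM against 49.5, 51.4 and 51.7 RPM.

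Of 17 rows for RNA polymerase III factors, 6 were above and 5 below (median 0.16). The list includes CRCP, itself a subunit of RNA polymerase III, which the rule for members by symbol did not take in. CRCP was at 17.3 RPM against 12.3, 15.9 and 16.8 RPM. BRF2, an initiation factor for the U6 class of promoters, was at 144 RPM against 97, 100.1 and 127 RPM and fell in the second fit, and SNAPC1, of the complex that binds those promoters, was at 0.716 RPM against 6.67, 2.53 and 7.27 RPM. Of 12 rows for assembly and import factors, 2 were above and 6 below (median -0.27), and in the second fit 2 of 5 rose and 0 fell, beside 7.11% higher and 7.26% lower of all rows. PIH1D1, of the R2TP chaperone that assembles polymerases, had 19.6 RPM in Control against 37.7, 44.3 and 40.7 RPM, with a log2 difference of 1.02 ± 0.28 (SE, unadjusted p = 0.019 by limma-trend). RUVBL2, an ATPase of the same chaperone, was at 52.4 RPM against 79.6 and 85.7 RPM, with 39.5 RPM in SLEAR shRNA-3. These were the 2 genes that rose in the second fit, and the RUVBL2 call thus rests on leaving out SLEAR shRNA-3. GPN3, a GTPase for nuclear import of RNA polymerase II, was at 12.8 RPM against 11.5, 6.38 and 1.87 RPM. POLRMT, the single-subunit polymerase of mitochondria, was at 56.3 RPM against 69.4, 64.7 and 102 RPM.

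**Figure D4:**
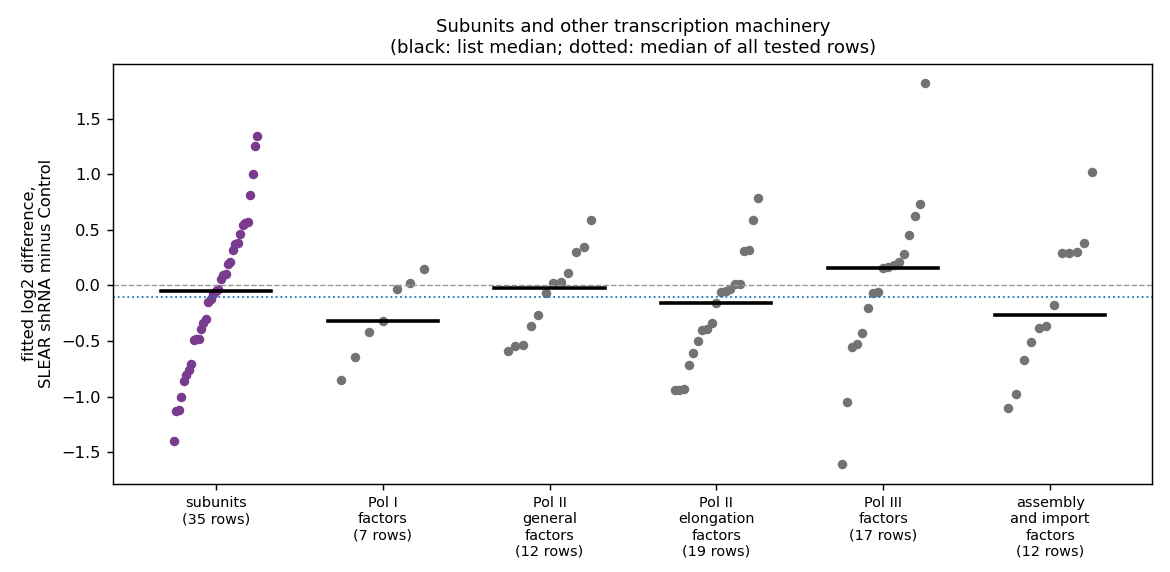
Fitted log2 difference of SLEAR shRNA from Control (y axis) for the 35 subunit rows (purple) and 5 lists of other transcription machinery (grey); points are rows, black lines list medians, and the dotted line is the median of all tested rows (-0.11). The list medians lie between -0.32 and 0.16, and the subunit rows spread from -1.40 to 1.35.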

How the data were processed

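Levels were used as the RPM values that the authors deposited in 1 table. Per the submitters' processing notes, FastQC, Bowtie2, SAMtools and the build hg19 were used; no source used here tells how reads were assigned to rows, and no coordinates of rows are given because the annotation at hand was of another build. RPM columns summed to 853109 to 895435, so part of each library lies outside the rows. Most values under 200 RPM were whole multiples of 1 step (96.5% to 96.9%, within 0.05 reads), but some rows lay below 1 read, so no count model was used. Merging rows of identical values (mean 1 RPM or more) removed 177. The 12350 rows that reached 1 RPM in any library were fitted by limma-trend (limma 3.58.1, R 4.3.3) on log2(RPM + 1), a scale that understates changes of low rows, adjusted by Benjamini-Hochberg over all of them and called under 0.05. The spread came from the 3 SLEAR shRNA libraries (2 degrees of freedom), and Control was assumed to vary like them. Medians of groups are over fitted differences, with an SD over the 3 library medians where given. Every member but 1, which is not reported here, is named with its values, fitted differences mainly where the mean log2 level is at least 4; of each factor list, the genes with the smallest p in each direction those past the threshold in the second fit (without SLEAR shRNA-3, mean log2 level of at least 4), TBP and POLRMT are named. Alternatives were other scalings, pseudocounts of 0.1 and 5, other filters, limma-voom and leaving out each SLEAR shRNA library. The members, lists and second fit were chosen with earlier results of these data known. Promoter windows are from RefSeq on GRCh38.p14, and transcript lengths and overlaps from GENCODE 29.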

Additional observations from a re-analysis of the deposited data

How the results depend on the processing

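With 1 Control library, leaving out Control was not possible, and limits come mainly from that and from the zeros of SLEAR shRNA-3. No paired analysis was possible because only the SLEAR shRNA libraries carry numbers. Of 154 fitted differences of 14 subunits under alternatives, 145 kept their sign and 2 (POLR2B, POLR2K) passed the threshold. Of the 9 that turned, 1 was POLR2J without SLEAR shRNA-2 (-0.003, in a range of -0.003 to 0.12 over libraries left out). The other 8 were without SLEAR shRNA-3, with or without the minimum mean log2 level of 4: POLR1C (0.06 in both), POLR1D row 2 (0.03), POLR2C (0.07) and POLR2G (0.04). Leaving out each SLEAR shRNA library in turn gave lows of -0.13, -0.19, -0.78 and -0.09 for these genes. Without SLEAR shRNA-3 and with that minimum, 345 rows were higher and 352 lower, and 1 subunit row each. With no filter on low values 1 row was higher and 376 lower, with 0 subunits among them. The medians were not computed under limma-voom. With that minimum alone the medians were -0.12 for RNA polymerase II (5 rows) and 0.78 for shared subunits (2 rows, POLR2H and POLR2K). Without SLEAR shRNA-3 as well they were 0.04 and 0.76, and -0.79 for large minus small. The large rows with that minimum were 2, POLR2A and POLR2B, against 12 small rows. Quantile normalization gave medians of 0.19 over all subunits, 0.33 for RNA polymerase I and -0.23 for RNA polymerase II. A pseudocount of 0.1 gave -0.12 for shared subunits and -0.72 for large minus small, and 5 gave -0.18 for RNA polymerase II. Leaving out each SLEAR shRNA library gave 0.01 to 0.22 for small subunits, -0.30 to 0.01 for RNA polymerase II, 0.20 to 0.59 for shared subunits and -0.66 to -0.38 for large minus small. It gave 10 to 18 rows above Control in every library left. The last counts were added after the data were seen. The large subunit median ranged from -0.64 to -0.16. Other medians moved by less than the SD between libraries, and the cause of these moves was not tested.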
